A study of Homo sapiens with 12 samples.

Results

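The distal part of the long arm of human chromosome 19, from 40 Mb to the end of the chromosome, was described across the maps of the histone variant H2A.Z and of its acetylated form, H2A.Zac. Regions were taken from all 6 lists when their midpoint lay at chr19:40000001-58617616 in hg38, which gave 3370 of the 158028 regions, 1477 of 63442 for H2A.Z and 1893 of 94586 for H2A.Zac. The stretch was chosen by the low share of gained among changed regions of both marks, which was known from earlier results of these data. Every count and ratio of the 2 marks below therefore comes from the contrast that chose the stretch, and is given as a description with no test. Its length is 18.6 Mb, and 632 protein-coding genes have their transcription start site (TSS) in it.

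ChIP-seq had been carried out in K562, a human chronic myeloid leukemia line with erythroid features, in which endogenous EP400 carried a tag that lets the degrader dTAGV-1 remove it. EP400 was supplied again from the AAVS1 locus, either as the wild type (WT) or without the stretch that contacts TRRAP (ΔTRRAP), with 1 clone per line, and both lines were kept with the degrader (500 nM) for 24 h. The 12 libraries were 2 biological replicates each of input, H2A.Z and H2A.Zac chromatin in the WT and the ΔTRRAP line. Regions higher in WT are called lost (in ΔTRRAP) here, those higher in ΔTRRAP gained, and the rest of the listed regions unchanged. The authors merged the replicates before they compared the lines, so a region has a single value, the log10 likelihood ratio between the lines, which is at least 3 for changed regions. The ratio depends on depth, and may depend on width, as well as on the change and is not a fold change. No value per replicate and no depth came with the lists, so no spread between replicates, no test across the lines and no precision of a single region can be given. With 1 clone per line, the effect of the EP400 deletion and a difference between clones cannot be told apart. Such a difference may be one of DNA copy number along 19q, which would enter the class of every region there, and the input libraries were not analysed here. Both marks were measured in the same clones with the same input libraries, and their classes are therefore set side by side and not used as support for each other.

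H2A.Z replaces the canonical H2A in nucleosomes beside active promoters and at enhancers. EP400 is the ATPase and the scaffold of the human TIP60 complex, and exchanges H2A for H2A.Z. A separate module of the complex holds the acetyltransferase TIP60 itself, whose substrates are H4, H2A and H2A.Z, and TRRAP is the large subunit to which transcription factors bind. The distal long arm of chromosome 19 is among the most gene-dense parts of the genome and is known for families of genes that stand in tandem, among them C2H2 zinc finger repressors, SIGLEC and leukocyte receptors, kallikreins, apolipoproteins, CEACAM and pregnancy-specific glycoproteins, and a large cluster of primate microRNAs. It also holds RUVBL2 and TFPT, which encode subunits of the related INO80 complex and, for RUVBL2, of TIP60, and PPP1R12C, the gene whose first intron contains AAVS1.

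Sequences are shown for the promoters that lead the gained and the lost order and for the gene that holds the transgenes. Promoters are the 200 bases before the TSS in RefSeq (GRCh38.p14), read 5′ to 3′ on the strand of the gene, with every CpG dinucleotide in capitals, because the changed promoters differed in CpG content (below). CEACAM21 (chr19:41549318-41549517, plus strand) was the protein-coding promoter with the highest ratio among those gained in H2A.Zac, and the gained H2A.Zac region covered 169 of these 200 bases. CD79A (chr19:41877079-41877278, plus strand) had the highest ratio among promoters lost in both marks, and the lost H2A.Zac region covered all 200 bases. The lost regions of SIGLEC11 (chr19:49961173-49961372, minus strand), the next in that order, began 136 bases (H2A.Zac) and 157 bases (H2A.Z) inside the gene, so that its upstream bases lay in no listed region. At PPP1R12C, shown because its first intron holds the EP400 transgenes (chr19:55117638-55117837, minus strand) 86 of the 200 bases lay in a gained and 37 in an unchanged H2A.Zac region.
CEACAM21: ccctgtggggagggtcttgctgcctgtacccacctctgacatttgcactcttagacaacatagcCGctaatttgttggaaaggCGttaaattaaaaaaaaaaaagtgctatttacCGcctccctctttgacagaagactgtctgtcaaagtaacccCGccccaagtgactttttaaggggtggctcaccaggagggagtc
CD79A: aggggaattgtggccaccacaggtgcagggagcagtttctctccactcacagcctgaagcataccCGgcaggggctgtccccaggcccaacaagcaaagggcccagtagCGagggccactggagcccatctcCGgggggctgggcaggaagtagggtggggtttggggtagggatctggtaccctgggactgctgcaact
SIGLEC11: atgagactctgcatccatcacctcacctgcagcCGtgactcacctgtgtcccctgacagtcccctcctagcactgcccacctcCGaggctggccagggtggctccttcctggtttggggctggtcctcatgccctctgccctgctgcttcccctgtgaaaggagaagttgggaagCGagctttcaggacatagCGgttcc
PPP1R12C: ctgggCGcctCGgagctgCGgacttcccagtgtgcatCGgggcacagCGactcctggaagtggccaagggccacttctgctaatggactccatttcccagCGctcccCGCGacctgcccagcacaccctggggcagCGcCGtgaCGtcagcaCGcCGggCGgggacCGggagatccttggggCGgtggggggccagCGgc
The CEACAM21, CD79A and SIGLEC11 sequences hold 4, 3 and 4 CpGs, with an observed to expected ratio of 0.35, 0.15 and 0.22. That of PPP1R12C holds 17, with a ratio of 0.68. The first 3 are CpG-poor and the last is CpG-rich.

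Away from promoters, the middle 200 bases of an intronic H2A.Zac region with a high ratio in each direction are shown (hg38, plus strand, CpGs in capitals), chosen after their values were seen. The lost one, the highest of the stretch, lay in intron 4 of HSPBP1, a cochaperone of HSP70 (chr19:55270176-55270375), and the gained one, below 2 other distal regions, in intron 3 of GRIN2D, a subunit of the NMDA receptor (chr19:48399776-48399975).
HSPBP1: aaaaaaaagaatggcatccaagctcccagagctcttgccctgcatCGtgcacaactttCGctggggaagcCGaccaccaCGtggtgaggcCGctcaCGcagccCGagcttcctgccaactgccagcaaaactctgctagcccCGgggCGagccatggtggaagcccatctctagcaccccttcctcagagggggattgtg
GRIN2D: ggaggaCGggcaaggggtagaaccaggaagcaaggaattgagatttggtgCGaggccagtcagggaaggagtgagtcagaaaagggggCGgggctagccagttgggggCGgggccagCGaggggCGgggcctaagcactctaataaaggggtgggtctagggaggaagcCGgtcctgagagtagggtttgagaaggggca
The HSPBP1 sequence has 9 CpGs and a GC content of 60.0%, and the GRIN2D sequence has 7 and 61.5%. The HSPBP1 sequence contains CACGTG, the letters of an E-box, and the GRIN2D sequence contains GGGCGG, the letters of a GC box. A match of letters is a description and does not show that a factor binds there.

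H2A.Z changed almost wholly in 1 direction along the stretch. Of the 1477 H2A.Z regions, 535 were lost (36.2%, against 19.8% of all listed H2A.Z regions) and 28 were gained (1.90%, against 14.1%), while 914 were unchanged. Of the 1893 H2A.Zac regions, 693 were lost (36.6%, against 25.9% of all listed H2A.Zac regions) and 275 were gained (14.5%, against 26.3%), while 925 were unchanged. Gained regions were thus 4.97% of the 563 changed H2A.Z regions (Wilson 95% confidence interval, 3.46 to 7.09%) and 28.4% of the 968 changed H2A.Zac regions (25.7 to 31.3%). In the genome without the stretch the same shares were 42.6% and 50.8%. These intervals cover counting error only, and neighboring regions are not independent. The H2A.Z share of the stretch was 0.65% with regions of at least 500 bp, 2.79% in base pairs and 0% at ratios of 10 and above. The lost regions covered 369 kb and the gained regions 10.6 kb for H2A.Z. A similar share of the regions of both marks was listed as lost, and more of the H2A.Zac than of the H2A.Z regions were listed as gained.

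**Figure D1:**
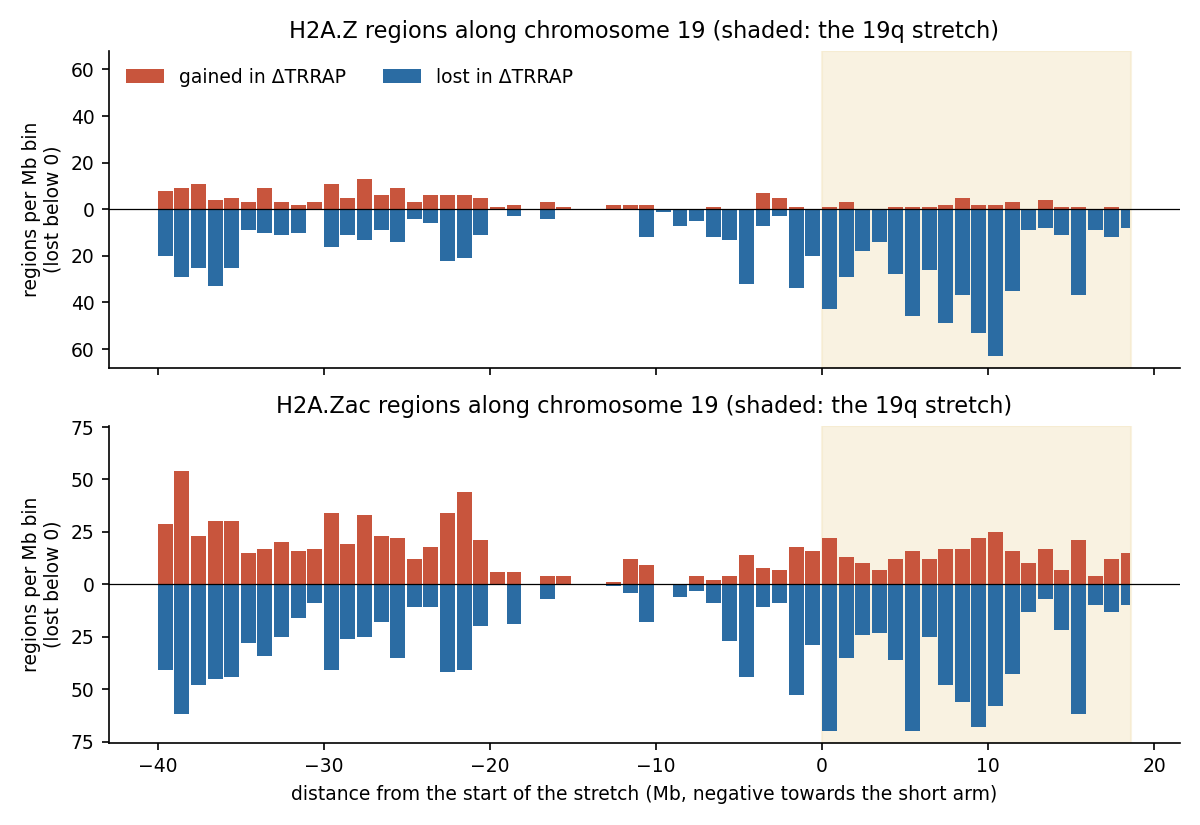
Regions gained (red, above 0) and lost (blue, below 0) in ΔTRRAP per 1-Mb bin along chromosome 19 for H2A.Z (top) and H2A.Zac (bottom), against the distance in Mb from the start of the stretch, which is shaded. H2A.Z had more lost than gained regions in all 19 bins of the stretch, and H2A.Zac in 17 of 19.

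The direction was kept from end to end in H2A.Z. All 19 bins of 1 Mb had more lost than gained H2A.Z regions, the median bin had a gained share of 3.45%, and 5 bins had no gained region. H2A.Zac had a median gained share of 27.1% over the same bins, and 2 bins had more gained than lost regions. Those 2 bins lay in the zinc finger clusters, from 53 to 54 Mb (17 gained and 7 lost H2A.Zac regions, 70.8% gained) and from 58 Mb to the end of the chromosome (15 gained and 10 lost, 60.0%). In the same bins H2A.Z had 4 gained and 8 lost regions, and 0 and 8. From 52 to 54 Mb together, 27 of 47 changed H2A.Zac regions were gained (57.4%, interval 43.3 to 70.5%), and from 57 Mb to the end 27 of 50 (54%, 40.4 to 67.0%). From 40 to 52 Mb the share was 25.4% (22.4 to 28.6%), and from 54 to 57 Mb it was also 25.4% (18.6 to 33.6%). The plot of regions along the chromosome shows these bins as the ones within the stretch where red exceeds blue for acetylation, while blue exceeds red for H2A.Z.

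The start at 40 Mb is not an edge in the data. The bin just inside, from 40 to 41 Mb, held 43 lost and 1 gained H2A.Z regions and 70 lost and 22 gained H2A.Zac regions. The bin just outside, from 39 to 40 Mb, held 20 lost and 0 gained H2A.Z regions and 29 lost and 16 gained H2A.Zac regions. From 36 to 38 Mb, 10 H2A.Z regions were lost and 12 gained, whereas from 34 to 36 Mb 45 were lost and 0 gained. The lost direction thus reached beyond the start of the stretch in H2A.Z, with an interruption.

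Promoters and distal regions differed in both marks. Regions were called TSS-proximal when they overlapped the 2-kb window centered on the TSS of any gene of GENCODE release 44. Of the changed H2A.Z regions near a TSS, 17 of 175 were gained (9.71%, interval 6.15 to 15.01%), and of the distal ones 11 of 388 (2.84%, 1.59 to 5.00%). Of the changed H2A.Zac regions near a TSS, 151 of 372 were gained (40.6%, 35.7 to 45.7%), and of the distal ones 124 of 596 (20.8%, 17.7 to 24.2%). Among H2A.Zac regions near a TSS with ratios of 10 and above, 22 of 114 were gained (19.3%). The acetylated form therefore had the larger gained share at TSSs and away from them. In the genome without the stretch the TSS-proximal shares were 60.8% for H2A.Z and 64.5% for H2A.Zac, and the distal shares were 36.2% and 45.02%. The rest of chromosome 19 lay between, with 41.9% and 56.3% near a TSS and 15.6% and 30.9% away from one. The long arm of chromosome 20 from 30 Mb on, which showed the same bias, had 1.41% and 18.97% near a TSS and 1.60% and 14.7% away from one. The 20q stretch thus had few gained H2A.Z regions as well, and the share of gained H2A.Zac near a TSS was 18.97% there beside 40.6% in the 19q stretch, a difference that was not tested.

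**Figure D2:**
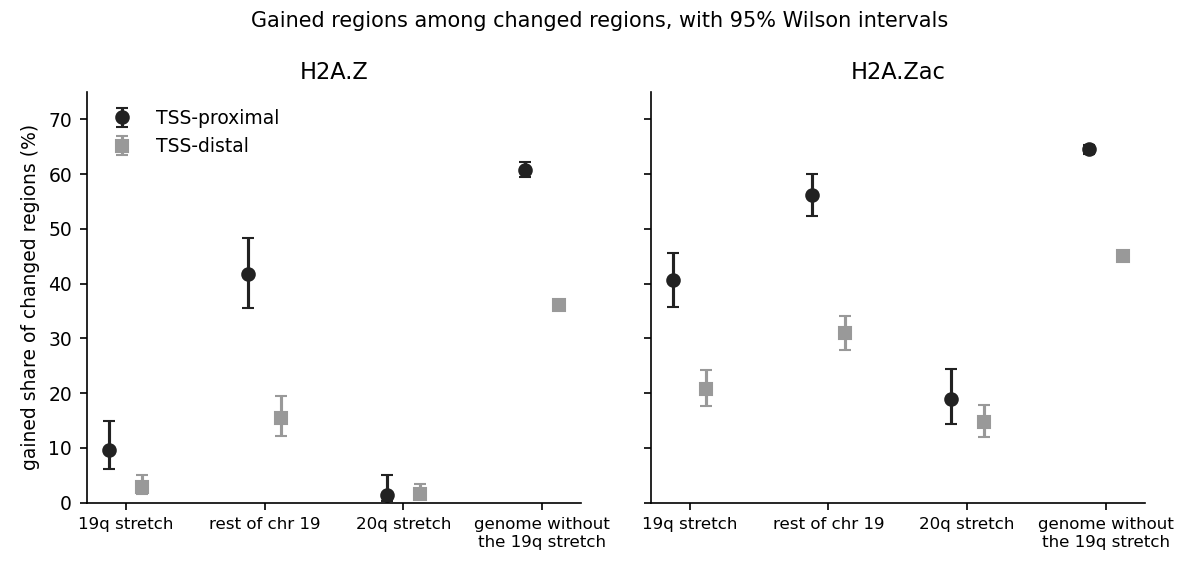
Gained regions as a percentage of changed regions, for H2A.Z (left) and H2A.Zac (right), near a TSS (circles) and away from it (squares), in the 19q stretch, the rest of chromosome 19, the 20q stretch and the genome without the 19q stretch. Bars are Wilson 95% intervals, which cover counting error only, and the TSS-proximal H2A.Zac share of the 19q stretch is 40.6%.

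Gained regions also had lower ratios than lost ones. The likelihood ratio of the lost H2A.Z regions had a median of 6.32 and a maximum of 22.8, and that of the gained ones a median of 5.07 and a maximum of 8.97, so that none of the 28 reached 10. For H2A.Zac the lost regions had a median of 9.04 and a maximum of 66.2, with 307 of 693 at 10 or above, and the gained regions a median of 6.18 and a maximum of 25.3, with 43 of 275 at 10 or above. At ratios of 10 and above, gained regions made up 12.3% of the changed H2A.Zac regions (9.25 to 16.1%), against 41.4% in the genome without the stretch. Gained regions were also narrower, with a median width of 517 bp against 713 bp for lost H2A.Zac regions and 356.5 against 552 bp for H2A.Z. Median GC content was 55.9% in gained, 53.4% in lost and 56.4% in unchanged H2A.Zac regions. Gained acetylation in the stretch was thus of lower ratio and narrower than lost acetylation, and nearer in GC content to the unchanged regions. The order of ratio and width was not particular to the stretch. Across the genome, gained and lost H2A.Zac regions had median ratios of 6.87 and 8.27 and median widths of 664 and 702 bp. In the 20q stretch the ratios were 5.87 and 9.52 and the widths 459 and 771 bp. The parts of width and depth in this order of ratios were not tested.

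Set over the H2A.Z map, lost and gained acetylation lay on different ground. Overlap was counted where at least 25% of a region was covered, and a region can be counted over more than 1 class. Of the 693 lost H2A.Zac regions, 340 lay over a lost H2A.Z region (49.1%, interval 45.4 to 52.8%), 224 over an unchanged one and 0 over a gained one, and 219 had no H2A.Z region. Of the 275 gained H2A.Zac regions, 140 lay over an unchanged H2A.Z region (50.9%, 45.03 to 56.8%), 15 over a gained one (5.45%, 3.33 to 8.80%) and 1 over a lost one, and 126 had none. The 1 opposite pair was a gained H2A.Zac region at chr19:41426875-41427413 with a ratio of 4.96, whose lost H2A.Z partner had a ratio of 3.92, about 1.3 kb from the TSS of B3GNT8, a glycosyltransferase. In the genome without the stretch, 18.9% of gained H2A.Zac regions lay over a gained and 45.9% over an unchanged H2A.Z region, 43.1% had none, and 28.0% of lost ones lay over a lost one. In the 20q stretch 302 of 688 lost H2A.Zac regions lay over lost H2A.Z (43.9%). Seen from the unchanged acetylation, 104 of 925 regions lay over lost H2A.Z in the stretch (11.2%, 9.37 to 13.4%), against 2.54% in the genome without it and 13.9% in the 20q stretch. Loss shared by both marks was thus frequent in the 20q stretch too, and gained acetylation lay mostly over unchanged H2A.Z or none, in the stretch and elsewhere in the genome.

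By gene, most promoters with gained acetylation had unchanged H2A.Z, which was the most frequent state of such promoters elsewhere too. Of the 632 protein-coding genes, 145 had a lost and no gained H2A.Zac region within 1 kb of the TSS (22.9%, against 12.6% of the 20046 protein-coding genes of the genome), and 104 had a gained and no lost one (16.5%, against 30.4%). A further 30 had both, 142 had unchanged regions only, and 211 had none. Genes of the lost and gained classes may hold unchanged regions as well. For H2A.Z, 118 genes had a lost region (18.7%, against 6.27%) and 9 a gained region (1.42%, against 12.6%), 1 had both, 259 had unchanged regions only and 245 had none. Of the 104 genes with gained H2A.Zac, 78 had unchanged H2A.Z (75%), 13 had no H2A.Z region, 9 had lost and 4 had gained H2A.Z. Of the 145 genes with lost H2A.Zac, 81 had lost H2A.Z (55.9%), 51 had unchanged H2A.Z and 13 had none. In the genome without the stretch, 61.9% of the genes with gained H2A.Zac had unchanged H2A.Z, 30.5% had gained H2A.Z too, and 33.5% of those with lost H2A.Zac had lost H2A.Z too. Gained H2A.Zac with unchanged H2A.Z was found at 78 of all 632 genes here and at 3709 of 19414 outside, a smaller share here. Few gained H2A.Z regions were a reason for the choice of the stretch, and the 75% is bound to that choice. The 104 gained promoters had ratios from 3.52 to 24.2 with a median of 6.10, and 17 were at 10 or above. The 145 lost promoters had a median of 9.57 and a maximum of 42.9, and 68 were at 10 or above.

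Of the promoters with gained H2A.Zac, that of CEACAM21, an adhesion receptor of the immunoglobulin family, had the highest ratio, 24.2, in a region of 1912 bp that ended 32 bases before the TSS. H2A.Z was gained there too, in regions with ratios of 8.97 and 6.35. VRK3, a kinase, and ZNF473, a zinc finger protein that takes part in histone pre-mRNA processing, shared 1 region of 328 bp with a ratio of 18.4, over unchanged H2A.Z. ERVV-2, an envelope gene left by an endogenous retrovirus, had 17.3 with no H2A.Z region. LIG1, the replicative DNA ligase, and its neighbor ZSWIM9 shared a region with 14.8 in intron 1 of LIG1, where H2A.Z was gained too (6.60). ZNF418 had 14.1 with gained H2A.Z (5.11), whereas ZNF534 (12.8) and ZNF549 (10.6) had unchanged H2A.Z. CARD8, an inflammasome sensor, had 13.5 between unchanged H2A.Zac regions, with a lost H2A.Z region within 1 kb of its TSS. The others were NOSIP and PRR12, which shared a region (12.0), the cation channel TRPM4 (11.9), the transcriptional coregulator SERTAD3 (11.3) and the synaptotagmin SYT5 (11.2). Genes that share a promoter region are not independent entries. Of the 15 genes, 3 had gained H2A.Z, CARD8 had lost H2A.Z and 3 (ERVV-2, SERTAD3 and SYT5) had no H2A.Z region at the TSS.

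At TRPM4 and CARD8 the gained H2A.Zac was a narrow strip inside a wide unchanged domain. At TRPM4 the gained region was 416 bp wide, 28 bases before the TSS, between unchanged H2A.Zac regions of 2600 and 947 bp, with an unchanged H2A.Z region (ratio 0.28) just downstream. At CARD8 the gained region was 281 bp wide, 196 bases inside the gene, between unchanged regions of 992 and 1383 bp. The changed strip there was a small part of the acetylated promoter. Unchanged H2A.Zac regions were also listed at other gained promoters, such as LIG1 (0.44), BAX (0.62) and KMT5C (1.52), but not at ZNF534 and ZNF549. A promoter classed as gained is therefore not one where acetylation rose as a whole.

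Of the 81 promoters lost in both marks, the 12 with the highest lost H2A.Zac ratio are named. CD79A, the signaling chain of the B-cell receptor, had ratios of 42.9 in H2A.Zac and 17.9 in H2A.Z, in regions of 2419 and 1782 bp across the TSS. SIGLEC11, a sialic acid receptor of myeloid cells, had 35.4 and 10.9. NKG7, a granule protein of cytotoxic lymphocytes, had 31.5 and 14.3. LILRA2, a leukocyte immunoglobulin-like receptor, had 23.4 and 14.3, SIGLEC6 had 22.0 and 16.4, and SIGLEC9 had 21.7 and 13.3. The other 6 of the first 12 were IGFL4 (35.0 and 6.87), GRIN2D (27.6 and 13.6), DMWD (23.9 and 8.17), KPTN (23.6 and 18.1), SHISA7 (23.1 and 5.78) and the repair scaffold XRCC1 (22.0 and 11.9). IGFL4 was scored at its outermost annotated start, and the lost H2A.Zac region there lay upstream of its canonical transcript (the main one in GENCODE). At FUT1 and FGF21, which share a region, H2A.Zac was lost with 21.6 over unchanged H2A.Z (0.76), the highest ratio among the 51 promoters of that kind, chosen after the values were seen.

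**Figure D3:**
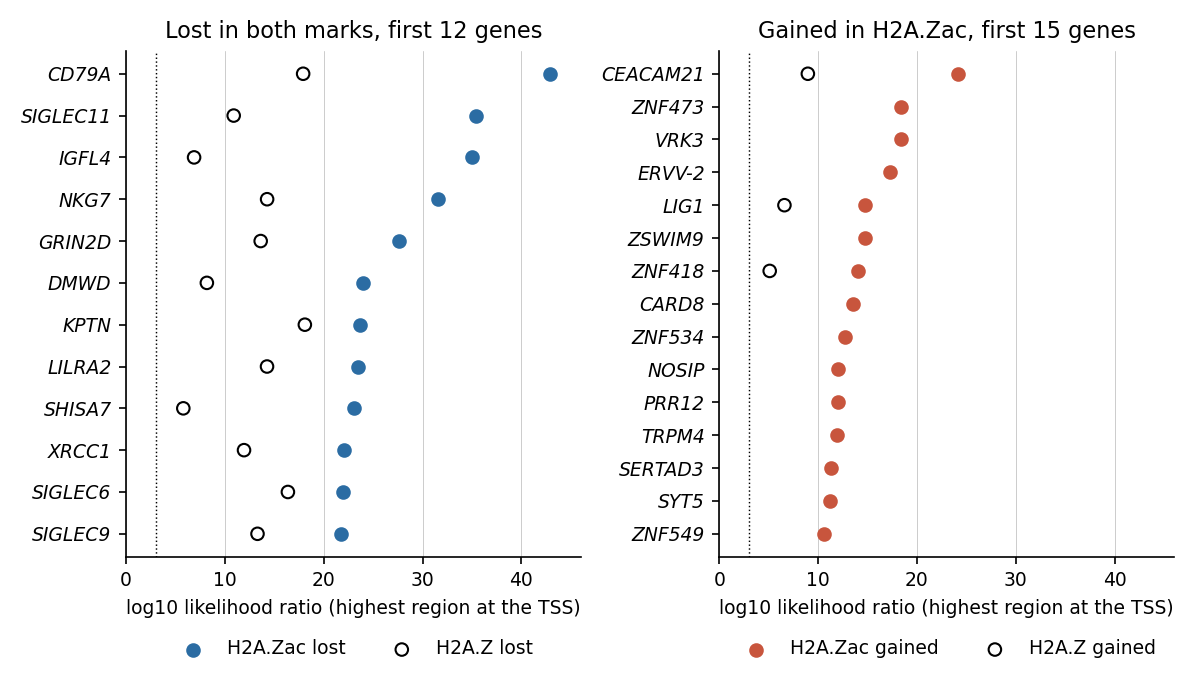
Highest log10 likelihood ratio of a region within 1 kb of the TSS, for the 12 genes with the highest lost H2A.Zac ratio among those lost in both marks (left) and the 15 genes with the highest gained H2A.Zac ratio (right). Filled points are H2A.Zac, open points H2A.Z of the same class, and the dotted line is the authors' cutoff of 3, and open points stand beside all 12 lost genes and beside CEACAM21, LIG1 and ZNF418 among the gained ones.

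Gained H2A.Z was rare enough to be named in full at promoters. Besides CEACAM21, LIG1 and ZNF418, it was listed at ODAD1, a dynein-docking protein of cilia (3.69), next to EMP3, which shares that region and also had a lost one (5.33). QPCTL, a Golgi glutaminyl cyclase (4.50), ARHGAP35, a GTPase-activating protein (3.29), and ISOC2 (5.59) had gained H2A.Z together with both gained and lost H2A.Zac. CGB1, a chorionic gonadotropin beta gene, and the overlapping annotation ENSG00000267335 had gained H2A.Z (7.09) with no H2A.Zac region. The gonadotropin beta genes are near-identical copies, and values at 1 copy are uncertain. The highest ratio away from promoters was 8.13, within the annotated span of LILRB4, a leukocyte receptor gene. That region lay 10.7 kb from the outermost annotated start and upstream of the canonical transcript. Of the 28 gained H2A.Z regions, 19 had at least 25% of their length in a gained H2A.Zac region (67.9%, interval 49.3 to 82.1%), 6 in an unchanged and 0 in a lost one, and 5 had no H2A.Zac region. In the genome without the stretch, 65.8% of gained H2A.Z regions lay over gained H2A.Zac, so the share here is near that of all regions.

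At 9 genes a gained H2A.Zac region and a lost H2A.Z region stood within 1 kb of the same TSS. Among these were CARD8 (H2A.Zac gained 13.5, H2A.Z lost 4.07), CCDC8 (9.96 and 3.49), ZNF329 (9.10 and 4.48), the tRNA-modifying CTU1 (6.54 and 7.16), the repressor ERF with the overlapping ENSG00000268643 (5.87 and 3.63), the kinase PRKD2 (4.59 and 8.17), and LRRC4B (3.52 and 3.51). The regions stood side by side: none of the gained H2A.Zac regions near a TSS had 25% of its length over lost H2A.Z. In the genome without the stretch, 44 of 5991 genes with gained H2A.Zac had lost H2A.Z (0.73%), against 9 of 104 here (8.65%).

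The zinc finger genes were the largest list. C2H2 zinc finger proteins of this kind mostly act with TRIM28 to silence transposable elements. Of the 142 genes, 33 had a gained, 26 a lost and 3 both kinds of H2A.Zac region at the TSS, 49 had unchanged regions only and 31 none. For H2A.Z, 20 were lost, 1 was gained (ZNF418), 85 were unchanged and 36 had none, where of all genes of the stretch 18.7% were lost, 1.42% gained, 40.98% unchanged and 38.8% without a region. After ZNF473, ZNF418, ZNF534 and ZNF549, the gained ratios continued with ZNF865 (9.74) and ZNF329 (9.10). ZNF606 (8.95) and ZNF135 (8.94) had no H2A.Z region. Zinc finger genes were 31.7% of the gained H2A.Zac promoters, 17.9% of the lost ones and 22.5% of all 632 genes. As a share of the zinc finger genes, 23.2% were gained, against 16.5% of all genes of the stretch and 30.4% of all genes of the genome. TRIM28 itself, at the distal end, had lost H2A.Zac (5.47) over unchanged H2A.Z.

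The SIGLEC genes are sialic acid receptors of leukocytes. Of the 12 genes, 6 had lost and none gained H2A.Zac, where 22.9% and 16.5% of all genes of the stretch did, and 5 had lost and none gained H2A.Z, where 18.7% and 1.42% did. At the last of these shares, none among 12 genes is no result about the family. SIGLEC12 had 18.3 and 14.6 beside the 3 named above, SIGLEC10 had 9.70 in H2A.Zac with no H2A.Z region, and CD33 had 4.84 over unchanged H2A.Z. Within the genes and 10 kb to each side, 21 H2A.Zac regions were lost and 3 gained, and 16 H2A.Z regions were lost and 2 gained, where gained regions were 28.4% and 4.97% of the changed regions of the whole stretch. The formyl peptide receptors, which guide neutrophils to bacterial peptides, lie beside them: FPR1 (7.48 and 4.56) and FPR2 (12.8 and 9.996) were lost in H2A.Zac and H2A.Z, and the remaining gene of that list had no region. Of the 25 leukocyte receptor genes, 20 had no H2A.Zac region at the TSS, 4 were lost and 1 was gained. The lost ones were LAIR1 (26.0), LILRA2, OSCAR (6.28) and the natural killer receptor NCR1 (5.60), and the gained one was GP6, the platelet collagen receptor (6.52). These families hold close copies, and values at 1 copy, or the lack of one, are uncertain.

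The other tandem families were mostly without regions at their TSSs. The shares of all genes of the stretch to set beside them are 33.4% with no H2A.Zac region, 22.9% lost, 16.5% gained and 4.75% both, and 38.8% with no H2A.Z region, 18.7% lost and 1.42% gained. Of the 22 CEACAM and PSG genes, 20 had none, CEACAM21 was gained and CEACAM7 was unchanged. Of the 15 kallikreins, secreted serine proteases, 11 had none in either mark, and KLK15 (16.1), KLK8 (12.0) and KLK1 (4.85) had lost H2A.Zac and lost H2A.Z (9.85, 8.27 and 10.1), while KLK13 lost H2A.Z (5.27) under unchanged H2A.Zac. Within the kallikrein genes and 10 kb to each side, 8 H2A.Zac regions were lost and 7 gained, and 8 H2A.Z regions were lost and 0 gained, beside the same 28.4% and 4.97% of changed regions gained in the whole stretch. Of the 6 CYP2 genes, the extrahepatic CYP2S1 alone had regions, lost in both marks (20.2 and 7.23). Of the 9 NLRP genes, NLRP12, a regulator of inflammation in myeloid cells, was lost (18.4 and 3.96), 3 had unchanged H2A.Zac and 5 had none. All 5 genes of the apolipoprotein cluster had changed H2A.Zac: APOC4 (19.3), APOE (18.96), APOC2 (11.9) and TOMM40 (4.72) were lost, and APOC1 had a lost (6.64) and a gained region (5.64). H2A.Z was lost there at APOE (9.45), APOC4 (8.12) and APOC1 (4.24). IGFL4 alone of the 4 IGFL genes had regions, and LHB (lost, 12.6) and CGB2 (gained, 7.37) alone of the 7 gonadotropin beta genes had changed H2A.Zac.

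**Figure D4:**
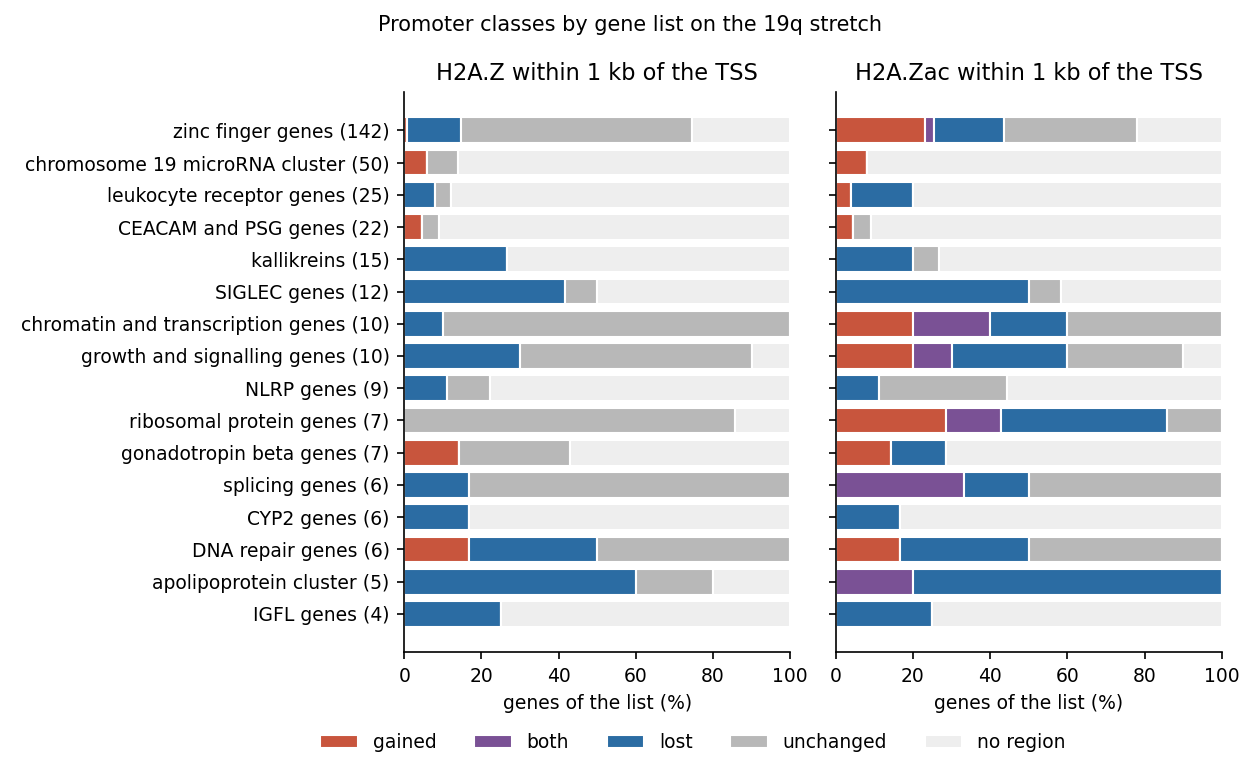
Share of the genes of each list, with its number of genes in brackets, whose TSS had within 1 kb gained, both gained and lost, lost, only unchanged or no regions of H2A.Z (left) and H2A.Zac (right). Gained H2A.Z appears in 5 of the lists shown, and gained H2A.Zac takes 33 of the 142 zinc finger genes.

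The microRNA cluster carried a gained H2A.Z region in its middle and a gained H2A.Zac region at its distal end. Its 50 microRNA genes include the primate-specific C19MC microRNAs and the miR-371 to miR-373 group, both known from placenta and from pluripotent cells. Of these genes, 43 had no H2A.Z region and 46 no H2A.Zac region within 1 kb. A gained H2A.Z region with a ratio of 7.71 (chr19:53721007-53721361) covered MIR517B and lay within 1 kb of MIR520D and MIR520G, with no H2A.Zac region. A gained H2A.Zac region of 882 bp with a ratio of 9.58 (chr19:53787645-53788526) lay over MIR371A, MIR371B and MIR372 and within 1 kb of MIR373, over H2A.Z that was unchanged (0.72). MIR373 itself lay in an unchanged H2A.Zac region (1.17). The mature products from the 3′ arm are shown with the seed, bases 2 to 8, in capitals (RefSeq, GRCh38.p14), because a seed is shared between both places.
hsa-miR-520d-3p: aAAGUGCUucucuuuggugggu
hsa-miR-372-3p: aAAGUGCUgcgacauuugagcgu
hsa-miR-373-3p: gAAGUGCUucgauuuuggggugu
hsa-miR-517b-3p: aUCGUGCAucccuuuagagugu
hsa-miR-520g-3p: aCAAAGUGcuucccuuuagagugu
hsa-miR-371a-3p: aAGUGCCGccaucuuuugagugu
The first 3 share the seed AAGUGCU, which 7 of the 73 mature microRNAs of the cluster carry (49 of the 50 genes were matched to RefSeq). The other 3 have other seeds. C19MC genes are near copies of each other, and values at 1 copy are uncertain.

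The lists of ribosomal, splicing and repair genes are small and are described by their members. Of all genes of the stretch with an H2A.Z region at the TSS, 66.9% had unchanged regions only, and in H2A.Zac 16.5% of all genes were gained and 22.9% lost, and the counts of these lists are read beside those values. Of 7 cytosolic ribosomal protein genes, 6 had unchanged H2A.Z and RPL18 had none. Among them, H2A.Zac was lost at RPL13A (7.41) and RPS19 (6.75), gained at RPS9 (5.63), both lost and gained at RPL18, and unchanged at RPL28. Of 6 splicing genes, 5 had unchanged H2A.Z, none had gained H2A.Zac alone, SNRPD2 and SNRNP70 had both kinds, and HNRNPUL1 was lost in both marks (6.81 in H2A.Zac and 5.69 in H2A.Z). Of 6 DNA repair genes, XRCC1 was lost in both marks, LIG1 was gained in both, and ERCC2 and POLD1 were unchanged in both. ERCC1, the partner of the XPF nuclease, was also listed as lost in both (18.5 and 7.46). It was scored at its outermost annotated start (chr19:45478828), and all of FOSB lies inside the annotated gene. The loss may therefore lie away from the usual ERCC1 promoter. Of 3 apoptosis genes, BAX (5.93) and BCL2L12 (5.15) had gained H2A.Zac over unchanged H2A.Z, and BBC3, also known as PUMA, was unchanged. The region at BCL2L12 is also that of IRF3, the interferon regulatory factor, whereas the NF-kappaB genes RELB and BCL3 were unchanged.

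Among 10 chromatin and transcription genes, 9 had unchanged H2A.Z, beside 66.9% of the genes of the stretch with an H2A.Z region. In H2A.Zac, 2 of them were gained and 2 lost, as against 16.5% and 22.9% of all genes of the stretch, and of the 10 growth and signaling genes 2 were gained and 3 lost. MED25, a Mediator subunit (9.50), and KMT5C, an H4K20 methyltransferase (5.90), had gained H2A.Zac. CIC (11.6 gained and 4.43 lost) and SIX5 (7.31 and 9.41) had both kinds, FOSB, an AP-1 subunit, was lost (8.46, with H2A.Z lost at 3.92), and PRMT1, MEIS3, FOXA3 and SYMPK were unchanged. Among 10 growth and signaling genes, the receptor kinase AXL was lost in both marks (15.6 and 13.1), TGFB1 had gained H2A.Zac (6.32) over unchanged H2A.Z, and AKT2 had both kinds (5.21 gained and 5.18 lost). CALM3, a calmodulin gene, lost H2A.Z (4.88) under unchanged H2A.Zac, and MARK4 lost H2A.Zac (12.8) over unchanged H2A.Z. MARK4 was scored at its outermost annotated start, which lies upstream of its canonical transcript.

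The TIP60 and INO80 subunit genes of the stretch did not pass the cutoff at their promoters. At RUVBL2 the regions across the TSS had ratios of 0.55 in H2A.Z and 0.55 in H2A.Zac, and at TFPT 0.52 and 0.50. The nearest changed regions to RUVBL2 lay beyond its end, with lost H2A.Zac at 12.6 and lost H2A.Z at 5.20. At PPP1R12C, where the EP400 transgenes were placed, a 301-bp H2A.Zac region over exon 1 and the bases upstream of it was gained (chr19:55117423-55117723, 7.56), and H2A.Z at the TSS was unchanged (0.50). Lost regions of both marks lay further in, between intron 1 and intron 3, next to unchanged H2A.Zac regions in intron 1 (1.82) and at its border with exon 1 (1.04). Lost H2A.Zac was also listed upstream of the promoter (4.02) and beyond the end of the gene (10.3). A lost region across exons 2 and 3 had ratios of 15.3 in H2A.Z (chr19:55112506-55113766) and 25.1 in H2A.Zac, and 1 in intron 1 had 9.32 (chr19:55114861-55115638) and 12.96. Both lines carry an insertion in intron 1, and how reads from the inserted and the intact copies of this gene were counted was not tested.

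The highest H2A.Zac ratios of the stretch in both directions lay outside promoters, while the highest gained H2A.Z ratio lay near a TSS (CEACAM21, 8.97). The highest lost H2A.Zac ratio was 66.2, in intron 4 of HSPBP1, 9.60 kb from its TSS and with no H2A.Z region. The next lost regions were 53.5 at chr19:45657668-45658395, 9.83 kb from the TSS of the incretin receptor GIPR, with lost H2A.Z of 21.8. They were followed by 49.3 across exons 18 and 19 of the kainate receptor GRIK5 and 49.1 across exon 5 of the muscle creatine kinase CKM, where H2A.Z was lost with 18.9. The highest gained H2A.Zac ratio away from TSSs was 25.3 at chr19:53055203-53055809, 10.5 kb from ERVV-2, with gained H2A.Z of 4.32 beneath it. Next came 21.3 within the annotated span of MARK4 but upstream of its canonical transcript, with no H2A.Z region. It was followed by 20.4 in intron 3 of GRIN2D. GRIN2D thus held both directions, with its promoter lost in both marks (27.6 and 13.6) and a gained H2A.Zac region of 1487 bp (20.4), 5.46 kb inside the gene. That region spanned a gained H2A.Z region of 306 bp (6.86) and lay in part over an unchanged one of 583 bp (0.38). A further gained H2A.Zac region with 24.96 (chr19:53036891-53038536), near the TSS of a gene that is not protein-coding and 6.20 kb from ERVV-2, made 3 gained regions with ratios above 10 within that neighborhood.

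Base composition separated the promoter classes in part. In the 300 bases from 250 before to 50 after the GENCODE TSS (hg38), the median ratio of observed to expected CpGs was 0.82 (quartiles 0.65 and 0.93) for the 104 promoters gained in H2A.Zac, 0.68 (0.33 and 0.84) for the 145 lost, 0.76 for the 142 unchanged and 0.32 for the 211 with no region. For the 78 promoters with gained H2A.Zac over unchanged H2A.Z it was 0.84, and for the 81 lost in both marks 0.66 (0.28 and 0.84). All 632 genes had a median of 0.63 and the 20046 genes of the genome 0.70. Median GC content was closer, at 60.7% for gained and 62.3% for lost. The lost promoters thus included more CpG-poor ones, and the gained promoters were mostly CpG-rich, with CEACAM21 among the exceptions.

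**Figure D5:**
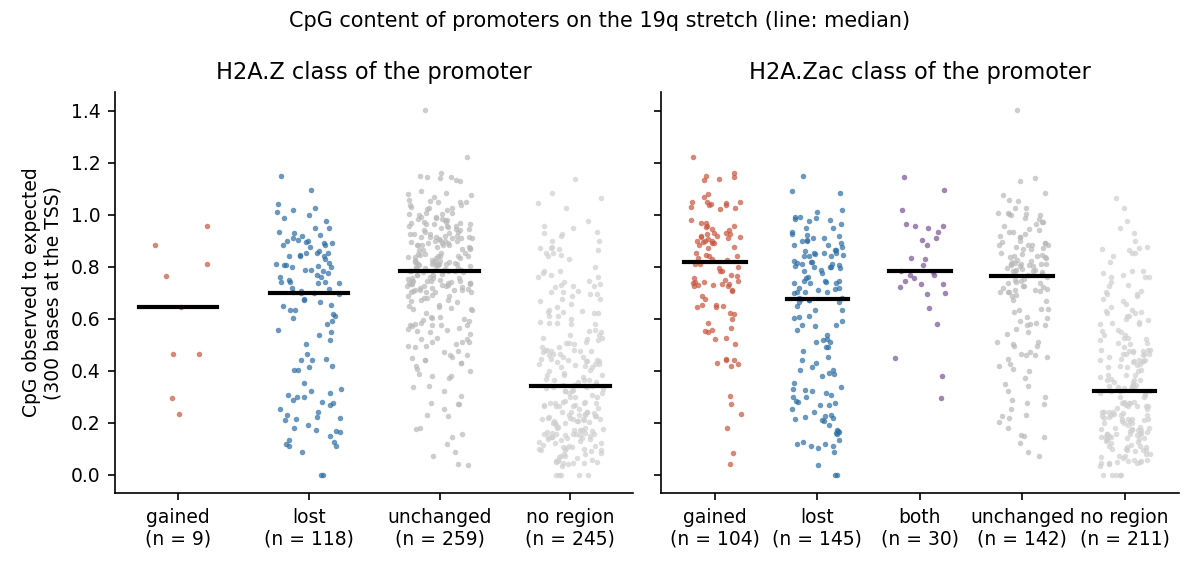
Observed to expected CpG ratio in the 300 bases at the TSS (vertical axis) for each protein-coding promoter of the stretch, by its H2A.Z class (left) and H2A.Zac class (right), with the median as a line and the number of genes under each class. The promoters with gained H2A.Zac have a median of 0.82 and those with no H2A.Zac region 0.32.

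Short motifs were counted in the same 300 bases on both strands, as letters only, and none of them is contained in another. CCGGAAG, the letters of an ETS site, was found in 30.8% of the 104 promoters gained in H2A.Zac, 17.2% of the 145 lost, 25.4% of the unchanged, 18.4% of all 632 and 11.9% of the 20046 promoters of the genome. GGGCGG, the GC box, was found in 70.2% of the gained and 55.2% of the lost promoters, 53.8% of all 632 and 52.4% of the genome's. AGATAA, the letters of a GATA site, was found in 9.62% and 8.28% of gained and lost promoters against 8.72% in the genome, and CCAAT in 34.6% and 35.2% against 35.96%. CACGTG, the E-box, was found in 3.85% and 8.97% against 8.35%. GC boxes and ETS letters were thus more frequent in gained than in lost promoters, which also differed in CpG content, and the part of CpG content in this was not tested.

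The cell line was checked by marker genes across the genome. Of 10 erythroid markers, 9 had an H2A.Zac region within 1 kb of the TSS, among them KLF1, NFE2 and EPOR, and GATA1 had none, while 62.2% of all genes of the genome had one. Only 3 of the 10 had an H2A.Z region, as 60.0% of all genes did. Of these 9, 3 were gained, 3 had both kinds, 3 were unchanged and 0 were lost alone. HBG2 and HBE1, 2 of the 3 with both kinds, were scored at annotated starts far upstream of the globin genes and share the same regions there, so that they count as 1 locus away from these genes. Of 8 lymphoid markers, 5 had one, 4 of which (LCK, CD2, CD3D and CD79B) were lost in ΔTRRAP and 1 was unchanged, where 12.6% of all genes were lost and 30.4% gained. A count of 5 in 8 is near the share of all genes with a region, both lists are too small to read a direction from, and the level of a region cannot be read from the lists.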

How the data were processed

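H2A.Z and H2A.Zac ChIP-seq from the WT and ΔTRRAP lines was analysed from 6 lists of regions, 3 per mark. The authors aligned reads to hg38 with Bowtie2 2.4.5, merged replicates and compared the lines with MACS2 2.2.7.1 bdgdiff after scaling to the effective depth. Their filter required 25% of a region within reproducible peaks (IDR up to 0.05). The deposited score of a region is the log10 likelihood ratio between the lines, merged over replicates. Changed regions have 3 or more, and it served only to rank and filter. A single peak may be split over several listed regions.

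Members were chosen by midpoint, and gene lists were fixed by symbol; both were chosen with earlier results of these data known. TSSs, exons and biotypes were from GENCODE release 44. A promoter's class came from regions within 1 kb of the gene's TSS. That TSS is the outermost annotated start of the gene. At some genes, IGFL4 and MARK4 among them, the canonical transcript starts elsewhere. The named genes were RUVBL2, TFPT and PPP1R12C, the 15 highest gained H2A.Zac promoters, all promoters with gained H2A.Z, the 12 highest promoters lost in both marks, and up to 4 genes per list; other members of the lists and the distal regions were named after their values were seen. Sequences came from RefSeq, where 499 of 632 genes matched and all 1510 promoters of chromosome 19 were identical to hg38, or from hg38 itself. Promoters whose 200 bases overlap an annotated exon (VRK3 and RUVBL2) were not printed, and ZNF473 had no entry. Shares have Wilson 95% intervals from scipy 1.17.1. Interval counts were checked against bedtools 2.31.1 on simulated regions. Python 3.11.15, numpy 2.4.6, pandas 2.3.3 and matplotlib 3.10.9 were used. Input libraries, signal tracks and expression were not analysed here. A few genes that the naming rule or the lists hold are not reported by name here, and counts include them.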

Additional observations from a re-analysis of the deposited data

How the results depend on the processing

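The 5 shares and counts that describe the stretch were recomputed under alternative settings, most of them shared between the results. This gave 31 values planned at the start and 1 chosen after seeing the data. Of the 32 values, 18 stayed within the interval of the reported value (or, for the gene count, within 1.5 times) and 14 did not. Gained regions stayed the minority of changed regions of both marks in every setting.

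At likelihood ratios of 10 and above, gained regions fell to 0% for H2A.Z (0 of 97, which allows up to 3.81%), 12.3% for H2A.Zac and 19.3% for H2A.Zac near a TSS, and 20 genes had gained H2A.Zac. With a ratio of at least 5, the H2A.Zac share was 24.7%. With regions of at least 500 bp, these values were 0.65%, 23.3%, 32.6% and 59 genes, and 39.3% of gained H2A.Zac regions lay over unchanged H2A.Z. In base pairs the gained shares were 2.79% and 22.8%. With an overlap of 1 bp, 57.8% of gained H2A.Zac regions lay over unchanged H2A.Z, and with 50% it was 40.7%. A higher cutoff and a minimum width both leave fewer gained regions, which were of lower ratio and narrower than the lost ones.

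No paired analysis was possible because the lists merge the replicates and hold no value per replicate. For the same reason no replicate was left out. Read depth is unknown, and a class of unchanged does not show that the lines are alike there. Genes that share a promoter region were counted once each.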
